A study of Homo sapiens with 6 samples.

Results

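The MIR224 and MIR452 genes give 4 mature microRNAs (miRNAs), miR-224-5p, miR-224-3p, miR-452-5p and miR-452-3p, taken by name from a table of 2656 mature miRNAs, where all 4 are listed. They were chosen by name as the pair lying in GABRE, but selected on these data in that their counts in the groups below were already known, so their differences between the groups are given as a description, with no p-value. The libraries come from KPL4, a human cell line established from a breast adenocarcinoma. In 3 of them the cells were knockout for estrogen receptor β (ERβ, encoded by ESR2), and in the other 3 they were knockout and carried exogenous ERβ. The knockout is thus common to both groups, and the sources used here do not give the vector, the promoter driving ERβ or the clones. No samples with an empty vector were analysed here, so an effect of ERβ and one of introducing it cannot be told apart. Fewer cells with a miRNA and less of it per cell cannot be told apart either.

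miRNAs are cut from hairpin transcripts, first in the nucleus and then by Dicer, which leaves a duplex of a 5p and a 3p arm. Usually one arm, the guide, is kept by an Argonaute protein and pairs with messenger RNAs mainly through its seed, bases 2 to 8, while the other is degraded. MIR224 and MIR452 lie in GABRE, the gene of the ε subunit of the GABA-A receptor, a chloride channel opened by the transmitter GABA. miR-224 is best known for its high level in hepatocellular carcinoma, and SMAD4 and the apoptosis inhibitor API5 are among its described targets.

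The 4 mature sequences are shown because the seeds decide which miRNAs could act on the same messages. The sequences are RefSeq's (GRCh38.p14), all 4 members were matched by name, and the seed is in capitals.
miR-224-5p: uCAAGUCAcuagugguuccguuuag
miR-224-3p: aAAAUGGUgcccuagugacuaca
miR-452-5p: aACUGUUUgcagaggaaacuga
miR-452-3p: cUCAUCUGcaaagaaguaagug
No seed was shared among the 4. The seeds of miR-224-5p, miR-224-3p and miR-452-3p occurred in no other mature miRNA of the RefSeq table, and that of miR-452-5p occurred in 2, shown here because they could share its targets.
miR-4676-3p: cACUGUUUcaccacuggcucuu
miR-892c-3p: cACUGUUUccuuucugagugga
In the KPL4 libraries these seed relatives were scarce beside miR-452-5p. miR-4676-3p, from chromosome 10, had 3.64 ± 0.237 CPM (counts scaled to a library of 1000000 counts, with TMM factors; mean ± SD, n = 3 libraries) in knockout cells and 4.24 ± 0.495 CPM with ERβ, and did not pass the test between groups (log2 fold change 0.22 ± 0.17 (SE), adjusted p = 0.432 by the quasi-likelihood test of edgeR). miR-892c-3p, from the X chromosome, had 0 counts in all 6 libraries, where a count of 0 allows up to 3 counts, or 0.201 to 0.305 CPM. The closest other mature sequence to any of the 4 members was 7 edits away (miR-216b-5p from miR-452-5p). Every one of their counts was a whole number, while 11.9 to 13.8% of the values above 0 in each library were not, as where reads are divided among similar miRNAs.

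Both hairpins are on the minus strand of chromosome X, MIR224 at chrX:151958578-151958658 and MIR452 at chrX:151959628-151959712 (GRCh38), with 969 bases between them. The hairpins are shown with both arms in capitals, 5p first, to show how each pair of arms comes from 1 stem.
MIR224: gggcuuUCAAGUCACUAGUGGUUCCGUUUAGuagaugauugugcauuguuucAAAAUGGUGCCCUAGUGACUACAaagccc
MIR452: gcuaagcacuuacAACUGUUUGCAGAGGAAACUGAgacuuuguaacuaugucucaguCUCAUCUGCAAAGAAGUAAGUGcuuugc
GABRE spans chrX:151953124-151974680, on the same strand. In its protein-coding transcript GABRE-201, with 9 exons, both hairpins lie in intron 6 (GENCODE release 29). MIR452 comes first, 14968 bases from the start of the gene, and MIR224 follows at 16022 bases. GENCODE also lists transcripts in which the pair is placed otherwise. In GABRE-203, marked for nonsense-mediated decay, exon 7 falls between the hairpins, so that MIR452 is in intron 6 and MIR224 in intron 7. In the retained-intron transcript GABRE-209 both are inside exon 1, and exon 3 of GABRE-207 covers MIR224 in part. GABRE messenger RNA was not measured by this assay.

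**Figure D1:**
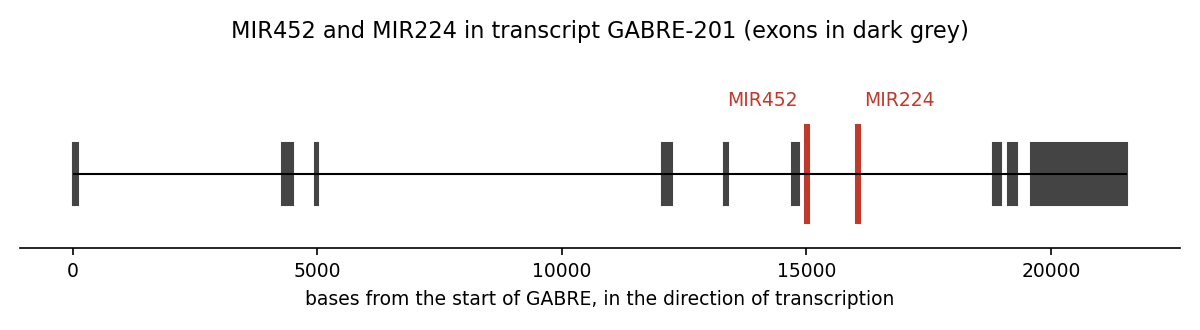
GABRE transcript GABRE-201 drawn to scale, with exons in dark grey and the hairpins in red; the horizontal axis is the distance in bases from the start of the gene. MIR452 (14968 bases) and MIR224 (16022 bases) both lie in intron 6, with 969 bases between them.

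Total counts were 10618999 to 12228519 in the knockout libraries and 10288413 to 14296900 in those with ERβ. The column names give 2 knockout libraries the number 1, called S1 and S2 here after the index that ends the name, and the other the number 3, while the sample titles number them 1, 2 and 3, so that which of S1 and S2 is replicate 2 is unknown; the libraries with ERβ are 1, 2 and 3. The labels do not say whether the libraries of a group came from different cultures. The p-values then reflect spread among these libraries alone, which may be technical. Library S2 stood apart: over the tested miRNAs, chi-square divided by its degrees of freedom was 307 between S2 and S1 and 331 between S2 and knockout library 3, while every other pair within a group had 12.2 to 21.2. The members' fold changes and mean log2 ratios are therefore also given without S2. The comparison of profiles below was not run without it. Most breast epithelial markers were abundant in all libraries, such as miR-200c-3p at 13863 ± 1060 CPM in knockout cells and 11152 ± 187 with ERβ. The least abundant, miR-375-3p, was at 279 ± 23.0 and 188 ± 17.3 CPM (log2 fold change -0.57). Of the 6 epithelial markers 4 were lower with ERβ at the threshold used below and 1, miR-205-5p, was higher (4388 ± 359 and 6311 ± 321 CPM). Of all tested miRNAs, 13.3% were lower and 9.83% higher. Only 1 of the 6 was lower under upper-quartile factors or library totals, beside 8.94% and 7.79% of all tested. Together the 6 held 63695 to 71281 CPM in knockout libraries and 56888 to 60016 with ERβ. Of 16 markers of other cell types, 9 had enough counts to test. Of these, 4 were lower with ERβ and 0 higher, beside the same 13.3% and 9.83% of all tested. The 4 were miR-1-3p of muscle (3.35 ± 0.528 and 0.515 ± 0.233 CPM), miR-143-3p of smooth muscle (log2 fold change -1.15), miR-199a-3p of stromal cells (272 ± 27.2 and 168 ± 3.02) and miR-126-3p of endothelium (16796 ± 224 and 13689 ± 581). The neural miR-9-5p was also abundant (42756 ± 4028 and 37358 ± 769 CPM) and did not pass the test. Nor did miR-451a, miR-142-3p and miR-142-5p of blood (log2 fold changes -0.80, 0.017 and 0.0060) or miR-122-5p of liver (0.33). Under library totals 3 of these 9 markers were lower and 1 higher, beside 7.79% and 18.6% of all tested. The list of other cell types held 54935 to 62528 CPM in knockout libraries and 49756 to 52280 with ERβ, mostly from miR-9-5p and miR-126-3p. The muscle marker miR-206 and the neural marker miR-124-3p had at most 1 count in any library, and no marker was at 0 in all of them. Both marker sums were lower with ERβ, without overlap under TMM scaling. The sums were not compared under other scalings, and their part in the results below was not tested.

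Between the hairpins, nearly all of the signal came from 1 arm of each. miR-224-5p was among the most abundant miRNAs of these cells, ranking 6 to 9 by count in the knockout libraries and 10 in each library with ERβ. It had 298057, 372501 and 268692 counts in knockout libraries S1, S2 and 3, and 204400, 287575 and 285923 in ERβ libraries 1, 2 and 3. miR-452-5p ranked 65 to 67 in all 6 libraries, with 28415, 28656 and 25733 counts in the knockout and 24170, 33451 and 33196 with ERβ. These ranks place the pair far apart in level although the hairpins are neighbours.

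The 3p arms were scarce, and that of miR-452 was close to the limit of detection. miR-224-3p had 33, 29 and 44 counts in the knockout libraries and 36, 30 and 35 with ERβ. miR-452-3p had 4, 1 and 0 counts in the knockout and 7, 3 and 1 with ERβ, and was the only member below the filter on low counts. Summed over the 6 libraries, the 3p arm made up 0.0121% of the counts of both miR-224 arms (exact Clopper-Pearson 95% binomial interval 0.0105 to 0.0138%) and 0.00921% of those of both miR-452 arms (0.00527 to 0.0150%). These intervals cover counting error only.

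The 5p arm exceeded the 3p arm in 6 of 6 libraries for both hairpins, a comparison within a library and not between groups. The mean log2 ratio of 5p to 3p was 12.99 ± 0.43 (SD, n = 6) for miR-224 (exact two-sided sign-flip permutation test, p = 0.0312). For miR-452 it was 13.63 ± 1.43 (n = 6, exact two-sided sign-flip permutation test, p = 0.0312). The counts summed over the 6 libraries, a separate measure that was not tested, had ratios of 8295 to 1 for miR-224 and 10851 to 1 for miR-452. With 2 counts added to each arm in place of 0.5, the mean for miR-452 was 12.77, as 1 library has no count of its 3p arm. miR-224-5p also exceeded miR-452-5p in 6 of 6 libraries, by a mean log2 ratio of 3.29 ± 0.24 (n = 6, same exact test, p = 0.0312). Adjusted over these 3 pairs each p stayed at 0.0312, which is also the smallest that 6 libraries allow. Since the members' counts were known when they were chosen, these p-values are no independent evidence. With S2 left out the 3 mean log2 ratios were 12.86, 13.52 and 3.21, all 5 libraries kept the direction, and the smallest possible p becomes 0.0625. A count of a mature miRNA is not scaled by length, and ligation and amplification differ among sequences, so ratios between miRNAs are ratios of counts and not of molecules in the cell.

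So strong an imbalance was at the upper end among the hairpins compared. These had exactly 1 5p and 1 3p arm in the RefSeq table, each arm from that hairpin alone. Of them, 97 had at least 10000 counts over both arms, with a median ratio of the major to the minor arm of 73.6. Some hairpins with both arms counted here, such as those of miR-21 and miR-141, are not among the 97. MIR452 ranked 4 and MIR224 ranked 5 by that ratio, behind MIR203A, MIR375 and MIR23A, in each of which the 3p arm is the major one. The place of MIR452 rests on 16 counts of its minor arm, and counting error was not carried into the ranks. Of the 97, the 5p arm was the major one in 61. The major arms of the pair begin with U (miR-224-5p) and A (miR-452-5p), and the minor arms with A and C. Over the 97 hairpins, U was the first base of 64 major and 16 minor arms, and A that of 13 major and 30 minor arms.

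**Figure D2:**
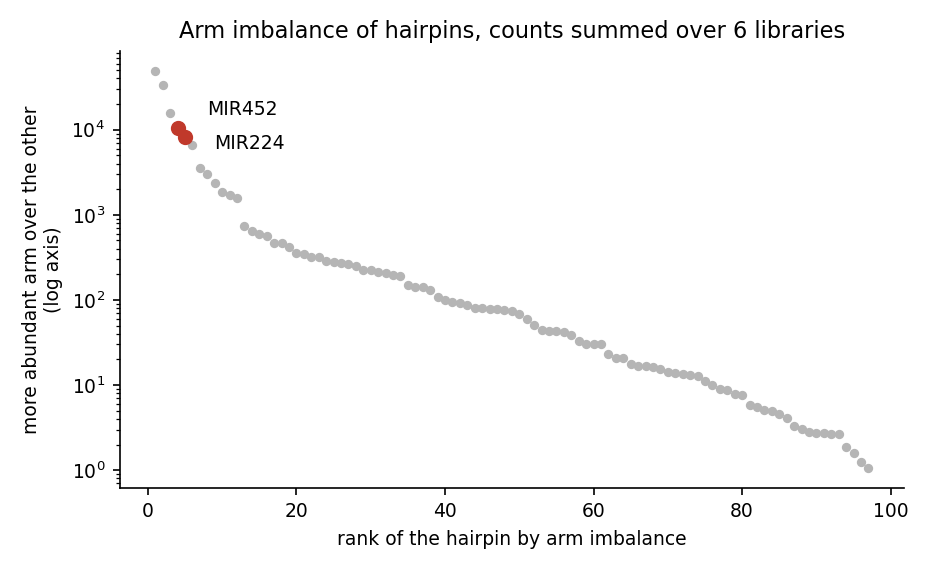
Ratio of the more abundant to the less abundant arm (log axis) for 97 hairpins, by rank, from counts summed over the 6 libraries with 0.5 added to each arm. MIR452 and MIR224, in red, rank 4 and 5, against a median ratio of 73.6. Counting error is not shown, and the less abundant arm of MIR452 has 16 counts.

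Between the groups, the abundant arms of the pair differed by unlike amounts. miR-224-5p was at 27096, 30785 and 27332 CPM in knockout libraries S1, S2 and 3 and at 18419, 19224 and 19331 CPM in ERβ libraries 1, 2 and 3. Every library with ERβ was below every knockout library, and S2 was the highest of all. The means were 28404 ± 2065 and 18991 ± 499 CPM (SD, n = 3 each), 33.1% lower with ERβ, a log2 fold change of -0.58 ± 0.07 (SE). Without S2 the log2 fold change was -0.52.

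miR-452-5p was at 2583, 2368 and 2618 CPM in the knockout libraries and at 2178, 2236 and 2244 CPM with ERβ. The groups did not overlap here either, but S2, the highest for miR-224-5p, was the lowest knockout library for miR-452-5p. The means were 2523 ± 135 and 2219.5 ± 36.2 CPM (SD, n = 3 each), and the log2 fold change was -0.18 ± 0.07, or -0.23 without S2. This small difference depended on how libraries were scaled. As CPM of the library total, with no TMM factor, miR-452-5p was at 2395, 2343 and 2423 in the knockout and at 2349, 2340 and 2339 with ERβ. On that scale the groups overlapped and the log2 fold change was -0.027, while miR-224-5p, at 25121 to 30462 in the knockout and 19867 to 20147 with ERβ, still did not overlap (-0.43).

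miR-224-3p, from the same hairpin as miR-224-5p, was at 3.00, 2.40 and 4.48 CPM in the knockout and at 3.24, 2.01 and 2.37 CPM with ERβ. The groups overlapped, and the log2 fold change was -0.38 ± 0.28, with a standard error close in size to the value. It was -0.57 without S2 and -0.10 without knockout library 3. For miR-452-3p the groups had 5 and 11 counts in all, too few to give a fold change.

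**Figure D3:**
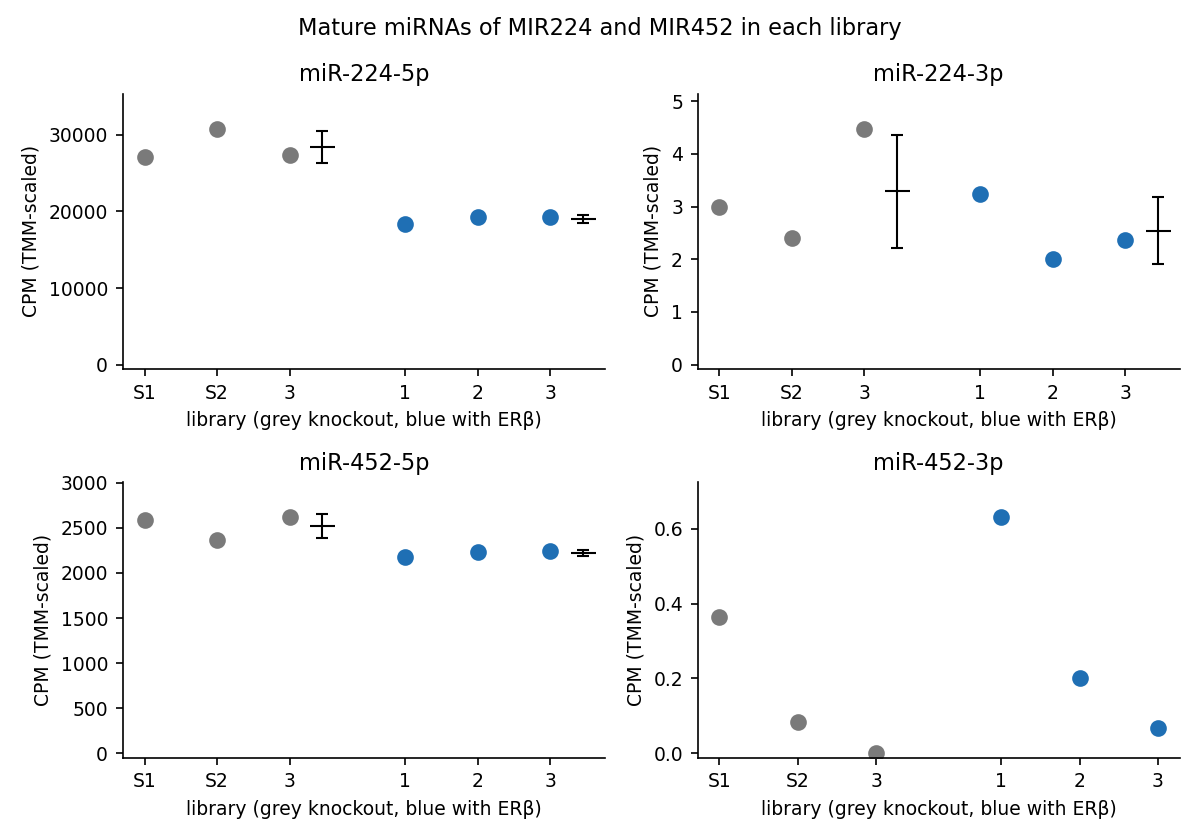
CPM (TMM-scaled, linear axis) of the 4 mature miRNAs in each library, knockout in grey and with ERβ in blue; black bars are the group mean ± SD (n = 3), left out for miR-452-3p with its 0 to 7 counts. The groups separate by a wide gap for miR-224-5p, narrowly for miR-452-5p and not for the 3p arms.

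Of the 3 members with enough counts to test, 1, miR-224-5p, was past a Benjamini-Hochberg adjusted p of 0.05 in edgeR's quasi-likelihood test and lower with ERβ, against 104 of all 783 tested miRNAs (13.3%). In the other direction were 77 of 783 (9.83%) and no member. Without S2, miR-452-5p was also past this threshold and lower, beside 19.6% of all tested miRNAs. That was the only 1 of 14 alternatives in which it passed. The split of 104 lower and 77 higher became 70 and 123 with upper-quartile factors and 61 and 146 with library totals. Both 5p members, and 20.9% of all tested miRNAs, had every library with ERβ below every knockout library; no member, and 18.9% of all tested, had every one above. Since this comparison was in view when the members were chosen, nothing is read from these counts. Upper-quartile factors moved the median log2 fold change of all tested miRNAs by 0.11 and library totals by 0.15. Relative to that median, miR-224-5p was at -0.57 and miR-452-5p at -0.17 under TMM and under both of these scalings. A change of scaling alone shifts all fold changes by nearly the same amount, so this holds by construction.

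**Figure D4:**
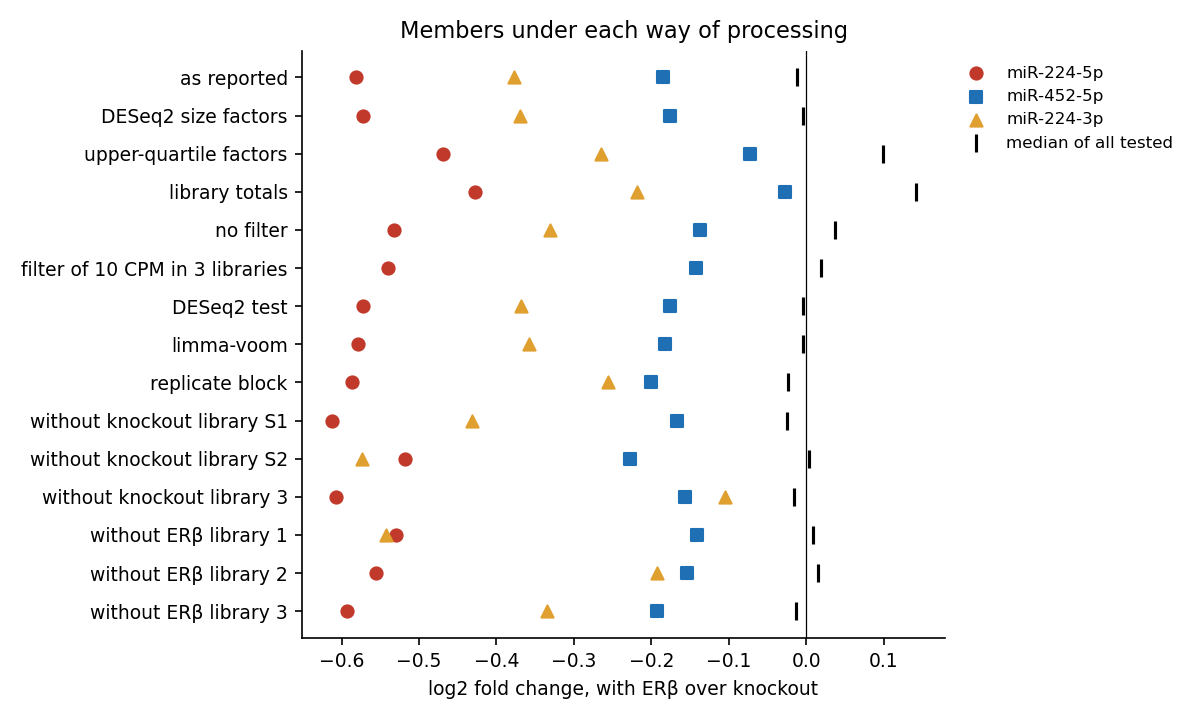
Log2 fold change (with ERβ over knockout) of the 3 tested members under each way of processing; black ticks are the median of all tested miRNAs. miR-224-5p runs from -0.61 to -0.43 and miR-452-5p from -0.23 to -0.027. Where only the scaling changes, both move with the median by construction.

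The ratio of the abundant arms within a library does not depend on scaling. Knockout libraries S1, S2 and 3 had 10.5, 13 and 10.4 counts of miR-224-5p for each of miR-452-5p, and ERβ libraries 1, 2 and 3 had 8.46, 8.60 and 8.61. All ratios with ERβ were below all knockout ratios, and the 3 libraries with ERβ were nearly equal. The mean ratios were 11.3 ± 1.46 and 8.56 ± 0.0860 (SD, n = 3 each), a difference of -0.39 on the log2 scale, or -0.29 without S2. The arm ratio of miR-224, at 8861 to 1 over the knockout libraries and 7702 to 1 over those with ERβ, differed by less than its spread between libraries (log2 13.10 ± 0.53 and 12.88 ± 0.39). For miR-452 these log2 ratios were 14.17 ± 1.51 and 13.10 ± 1.39, with 16 counts of the 3p arm behind them. These are the same contrast that was in view when the pair was chosen, and were not tested.

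**Figure D5:**
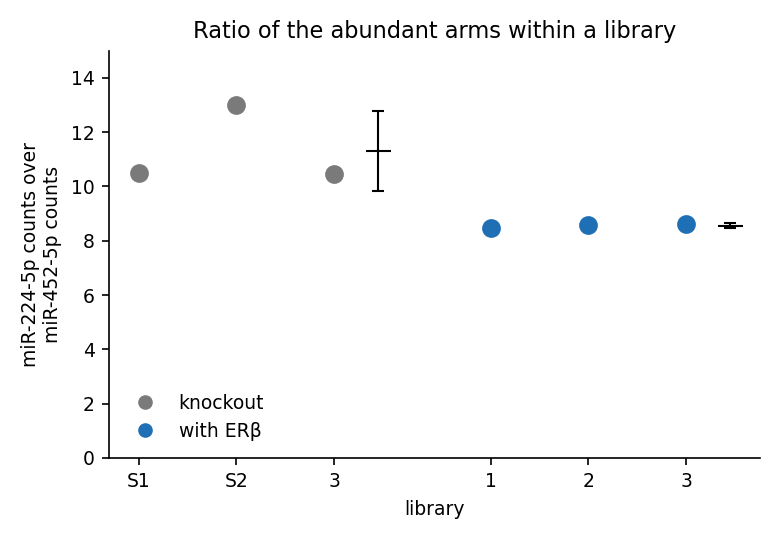
Counts of miR-224-5p divided by counts of miR-452-5p in each library, knockout in grey and with ERβ in blue; black bars are the group mean ± SD (n = 3). The libraries with ERβ sit at 8.46 to 8.61, below the knockout libraries at 10.4 to 13, of which S2 is the highest.

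Profiles over the 6 libraries were compared by the root mean square difference of log2 CPM, each centred on its own mean, over 389 miRNAs averaging at least 10 CPM. The partner was not the closest match of either 5p arm: miR-452-5p ranked 88 by likeness to miR-224-5p, and miR-224-5p ranked 222 by likeness to miR-452-5p, at a difference of 0.22. Closest to miR-224-5p were miR-1299 (0.06), miR-23b-3p (0.07) and miR-30d-5p (0.08). miR-30d-5p also had its highest value in S2, at 13792 CPM against 10664 in S1 and 10543 in knockout library 3. Closest to miR-452-5p were miR-30c-5p (0.02), let-7g-5p (0.03) and miR-26b-5p (0.03). miR-30c-5p, at 2798 ± 155 CPM in the knockout and 2454 ± 12.1 with ERβ (n = 3 each), was also near it in level. This order is unchanged by scaling, by construction. A profile centred over all 6 libraries holds the group difference, the contrast in view when the members were chosen. The 3 closest to miR-224-5p had log2 fold changes of -0.61, -0.58 and -0.57, near its own. The ranks thus largely restate that difference and are no separate evidence. When each profile was instead centred within its group, the 3 closest to each arm included none of the miRNAs named here.

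Among 88 miRNAs averaging at least 1000 CPM, 24 were lower and 7 higher with ERβ at the same threshold, beside 13.3% and 9.83% of all tested, and the median log2 fold change was -0.10. These counts depended on scaling, as did the shares of all tested miRNAs. Under upper-quartile factors 9 were lower and 16 higher, beside 8.94% and 15.7% of all tested. Under library totals they were 8 and 21, beside 7.79% and 18.6%. Without S2 they were 41 and 17, beside 19.6% and 15.25%. Of the 88, 1 had a lower log2 fold change than miR-224-5p (miR-10a-5p) and 34 had a lower one than miR-452-5p. Without S2 these were 3 (miR-10a-5p, miR-23b-3p and miR-542-3p) and 29, and without ERβ library 1 they were 3 and 36. Such places restate the contrast in view when the members were chosen and are no separate evidence.

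The nearest other miRNA hairpins on chromosome X were MIR105-1, MIR767 and MIR105-2, on the same strand and 433 to 435 kb away. They lie in another receptor subunit gene, GABRA3, which encodes the α3 subunit. All 4 of their mature miRNAs were tested and lower with ERβ (edgeR, Benjamini-Hochberg adjusted p under 0.05), beside 13.3% of all tested miRNAs, with log2 fold changes of -1.27 for miR-105-5p, -1.19 for miR-105-3p, -1.39 for miR-767-5p and -1.18 for miR-767-3p. miR-767-5p was at 139, 184 and 141 CPM in knockout libraries S1, S2 and 3 and at 58.7, 57.8 and 60.7 with ERβ, so that S2 was again the highest, and the other knockout libraries alone were still above all those with ERβ. miR-105-5p was at 87.1, 103 and 99.2 CPM in the knockout and at 39.3, 42.3 and 38.3 with ERβ. The groups did not overlap for either. miR-105 counts cannot be divided between MIR105-1 and MIR105-2, which give the same mature miRNAs. That these miRNAs differed more between groups than miR-224-5p was not tested.

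Elsewhere on chromosome X, 2 clusters known for testis or epididymis expression were near the limit of detection. The miR-888 cluster had 7 to 16 counts per library over 10 mature miRNAs and the cluster of miR-506 to miR-514 had 10 to 23 over 20, of which 4 and 10 had no count in any library, and none passed the filter on low counts. The RefSeq table gave 57 other tested miRNAs a single hairpin, on chromosome X. Of these, 15 were lower and 6 higher with ERβ, beside 13.3% and 9.83% of all tested. Their median log2 fold change was -0.16, with a range from -1.11 to 0.67, and 12 of the 57 had a lower one than miR-224-5p. Some tested arms of X-linked hairpins, such as miR-221-5p, are not among the 57. Over all 783 tested miRNAs the median was -0.01. Under library totals 9 of the 57 were lower and 12 higher, beside 7.79% and 18.6% of all tested.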

How the data were processed

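Small RNA libraries of 6 KPL4 samples, 3 per group, were made with a QIAseq miRNA kit, per the labels' protocols. FastQC, Trim Galore and GRCh38 are named in the submitters' processing notes. Which aligner and counter were used, and how shared reads and molecular identifiers were treated, is not stated in those sources. The authors deposited expected counts per mature miRNA. They were rounded to whole numbers. Groups were compared by edgeR 4.0.16 under R 4.3.3, with the filterByExpr defaults (minimum count 10, minimum total 15), TMM scaling, robust quasi-likelihood test, Benjamini-Hochberg adjustment over 783 miRNAs at 0.05, no covariates. These miRNAs held 99.98% of counts. Standard errors are the absolute log2 fold change divided by the root of the F statistic. The fit was tested on simulated counts.

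Ratios within a library used a prior of 0.5 counts and exact two-sided sign-flip tests. The members, lists and naming rule (the members, the 3 closest profiles to each 5p arm, the GABRA3-hosted miRNAs and the seed relatives) were chosen with earlier results of these data known; miR-10a-5p, miR-542-3p and the hairpins ranked above the pair by arm imbalance were picked with their values known. As alternatives, 3 scalings and 2 filters were exchanged, and the following were run: DESeq2 1.42.0, voom in limma 3.58.1, a replicate block and each library left out. An adjusted p that DESeq2 gave as NA stayed NA.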

Additional observations from a re-analysis of the deposited data

How the results depend on the processing

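miR-224-5p was lower with ERβ in all 14 alternatives, with log2 fold changes of -0.61 to -0.43; the values furthest from the reported -0.58 were -0.47 (upper-quartile factors) and -0.43 (library totals). miR-452-5p was at -0.073 and -0.027 under these scalings. With a library left out, miR-224-5p ranged from -0.61 to -0.52, miR-452-5p from -0.23 to -0.14 and miR-224-3p from -0.57 to -0.10, and the difference of the log2 ratio of the 5p arms, an alternative added after the data were seen, from -0.45 to -0.29. Over all miRNAs 104 were lower and 77 higher. Library totals gave 61 and 146, upper-quartile factors 123 higher (70 lower), and the filter of 10 CPM in 3 libraries, which tests fewer miRNAs, 66 lower. Leaving out a library gave 58 to 157 lower and 49 to 122 higher, the largest counts without S2 (157 and 122). Without ERβ library 1, 2 or 3 the lower miRNAs numbered 58, 60 and 62, and without ERβ library 3 the higher ones numbered 49.

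The replicate block, on the number in the column names, gave 50 lower and 38 higher, with miR-224-5p at -0.59 and miR-452-5p at -0.20. Only the numbers 1 and 3 occur in both groups' column names. Both S1 and S2 fall under number 1 there, although one of them is replicate 2 by the sample titles. Deviations from the group means correlated at -0.26 (S1) and 0.30 (S2) with ERβ library 1, and at 0.36 for the libraries numbered 3, so the numbers do not establish a pairing.

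The mean log2 ratio of 5p to 3p was 12.86 to 13.10 for miR-224 and 13.23 to 14.03 for miR-452 with a library left out, and 3.21 to 3.34 for miR-224-5p over miR-452-5p. In knockout libraries alone these were 13.10, 14.17 and 3.49, and in libraries with ERβ alone 12.88, 13.10 and 3.10; such sets of 5 and 3 libraries cannot reach a p below 0.0625 and 0.25. Fold changes of miR-452-3p were not run for want of counts, and a prior of 0 could not be used for its ratio, which was 12.77 with a prior of 2. Counts over the abundant, X-linked, GABRA3-hosted and marker miRNAs were recomputed after the data were seen. With a library left out, 8 to 41 abundant miRNAs were lower and 2 to 17 higher, and with the replicate block 6 and 1. For the 57 on chromosome X these were 7 to 21, 2 to 9, 6 and 0. With a library left out, 7.15 to 19.6% of all tested were lower and 6.125 to 15.25% higher. The replicate block gave 6.39% and 4.85%. All GABRA3-hosted miRNAs that each fit tested were lower in every alternative. Ranks of the partner by profile likeness were 134 and 193 when centred within groups, against 88 and 222. Depth limits the 3p arms, with 29 to 44 and 0 to 7 counts per library.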
